A study of Mus musculus with 10 samples.

Results

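Of 23086 genes in the expression table of mouse urothelial tumours, 113 were listed at 0 in all 5 ATM-KO tumours while their mean over all 10 libraries was at least 10 normalized counts. These 113 genes are described here by what they do and by their level in the 5 ATM-WT tumours. The tumours were grown in mice from BBN963, a mouse bladder cancer cell line, in its ATM-WT form or its ATM-KO form, in which the DNA damage kinase ATM is knocked out. They were harvested at a size of 500 mm3, and a snap-frozen part of each went to RNA sequencing. The libraries carry the names A1 to A5 (ATM-WT) and A11 to A15 (ATM-KO), and no treatment, age or strain of the hosts is stated in the sources used here. The number of ATM-KO clones is not stated either, nor whether every tumour grew in its own mouse. The p-values therefore reflect only how far these 10 tumours spread, which may be technical.

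The members were chosen on the measured values, so their absence from the ATM-KO libraries is the rule itself and no test of it is reported. A total of 642 genes were listed at 0 in every ATM-KO library, and 121 of them had a mean of at least 10. From these, genes whose symbols begin with Krt, Upk, Cldn, Dsc, Dsg, Sprr, Serpinb, Hox, Col or Pcdh, and the gene Snx31, were left out, which removed 8 genes (Krt4, Cldn8, Upk3b, Serpinb3d, Upk3a, Sprr2f, Hoxd3 and Col9a1) and left 113. Keratin, uroplakin and claudin genes are thus missing from the 113 by construction.

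Stratified and mucosal epithelia protect a surface. The outermost cells secrete mucins, antimicrobial proteins and antibody carriers, and they also build a lipid and protein seal against water loss. Grainyhead-like transcription factors switch on genes of the seal, and goblet-cell regulators such as Spdef switch on genes of mucus production. Transmembrane serine proteases, their inhibitors and small surface proteins of the Ly6 family trim and shield the apical membrane, and sodium channels and solute carriers adjust the fluid above it. In the bladder the same surface is also the barrier to urine.

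The reference promoters of the 5 members with the highest ATM-WT means, and of Grhl3, the transcription factor with the highest mean among them, are printed here to show the letters searched, from 250 bases before to 50 bases after the annotated start (RefSeq, mouse build GRCm38.p6, 5′ to 3′ on the gene's strand). Capitals mark CAGGTG or its reverse complement CACCTG, an E-box letter pattern, found by a search of both strands.

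Muc4 (chr16:32735636-32735935, plus strand): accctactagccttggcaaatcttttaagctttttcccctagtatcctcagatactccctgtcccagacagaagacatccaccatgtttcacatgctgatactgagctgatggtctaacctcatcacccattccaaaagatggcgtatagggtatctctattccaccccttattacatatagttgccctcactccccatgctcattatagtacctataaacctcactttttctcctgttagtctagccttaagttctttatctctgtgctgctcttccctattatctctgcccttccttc
Teddm3 (chr16:21153895-21154194, minus strand): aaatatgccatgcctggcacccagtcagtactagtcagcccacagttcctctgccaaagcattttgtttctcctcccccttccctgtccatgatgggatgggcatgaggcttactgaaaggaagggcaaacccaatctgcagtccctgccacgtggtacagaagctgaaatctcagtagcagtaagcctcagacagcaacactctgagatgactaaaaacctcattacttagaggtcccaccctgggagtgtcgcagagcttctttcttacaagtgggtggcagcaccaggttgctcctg
Pigr (chr1:130826434-130826733, plus strand): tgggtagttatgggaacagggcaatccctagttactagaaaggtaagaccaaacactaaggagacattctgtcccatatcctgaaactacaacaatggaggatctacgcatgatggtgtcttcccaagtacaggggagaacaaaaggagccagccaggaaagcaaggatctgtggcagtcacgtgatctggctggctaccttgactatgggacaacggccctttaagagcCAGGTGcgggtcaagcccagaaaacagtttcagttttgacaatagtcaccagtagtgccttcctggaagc
Tmprss11d (chr5:86373338-86373637, minus strand): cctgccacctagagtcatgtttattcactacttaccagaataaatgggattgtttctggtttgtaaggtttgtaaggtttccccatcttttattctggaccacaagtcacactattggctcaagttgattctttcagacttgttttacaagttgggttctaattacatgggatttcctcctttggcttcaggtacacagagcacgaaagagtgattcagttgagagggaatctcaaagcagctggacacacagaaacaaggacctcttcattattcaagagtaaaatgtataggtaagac
Gpx2 (chr12:76795505-76795804, minus strand): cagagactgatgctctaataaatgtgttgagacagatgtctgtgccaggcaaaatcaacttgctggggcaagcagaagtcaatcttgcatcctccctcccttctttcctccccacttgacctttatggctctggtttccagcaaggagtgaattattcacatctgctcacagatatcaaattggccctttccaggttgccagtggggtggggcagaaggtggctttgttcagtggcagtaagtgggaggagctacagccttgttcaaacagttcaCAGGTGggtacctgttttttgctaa
Grhl3 (chr4:135573583-135573882, minus strand): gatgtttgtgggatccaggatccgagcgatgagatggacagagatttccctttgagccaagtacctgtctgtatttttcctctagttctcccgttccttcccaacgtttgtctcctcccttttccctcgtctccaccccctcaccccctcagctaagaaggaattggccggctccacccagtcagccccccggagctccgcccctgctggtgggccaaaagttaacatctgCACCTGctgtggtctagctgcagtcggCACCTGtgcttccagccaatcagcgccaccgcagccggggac

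Pigr and Gpx2 had 1 match each, Grhl3 had 2, and Muc4, Teddm3 and Tmprss11d had none. The table of promoters held 96 windows for 79 of the 113 members, since a gene can have several annotated starts. The E-box pattern was present in 42 of the members' 96 windows (43.8%, 38 genes), in 20.2% of all 32851 windows of the same length and in 18.4% of the 15165 windows of genes with a mean of at least 10. Members' windows were also poor in CpG, with a median ratio of observed to expected CpG of 0.235, against 0.384 in all windows and 0.715 in those of genes with a mean of at least 10. Among windows with a ratio under 0.4, the pattern stood in 41.7% of members' windows and in 22.1% of windows of genes with a mean of at least 10. For the ETS and AP-2 patterns the comparison depended on the windows set beside the members. The ETS pattern CCGGAAG was in 4.17% of members' windows, 8.86% of all windows and 15.5% of those of genes with a mean of at least 10, but at ratios under 0.4 it was in 5.56% of members' windows and 3.08% of the others. GCCNNNGGC, an AP-2 pattern, was in 15.6%, 16.6% and 23.9%, and at low ratios in 16.7% and 11.7%. The AGATAA letters of GATA factors were in 17.7%, 11.2% and 6.79%, and at low ratios in 20.8% and 12.8%. TATAAA was in 15.6%, 13.6% and 8.01%, and at low ratios in 16.7% and 14.6%. Both patterns had the higher share in members' windows in each of these comparisons. The grainyhead pattern AACCNGTT was in 5 of 96 members' windows from 3 genes, and 3 of those windows overlap at Gm45941, so no share is compared. A pattern of the p53 and p63 type was in 2 members' windows. These are letter matches on both strands, and no binding was measured.

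The libraries summed to between 20200000 and 22300000 normalized counts each. One sequenced read was worth about 0.762 to 1.02 normalized counts in 9 libraries and about 2.46 in A2, which puts A2 near 8820000 reads and the others between 20600000 and 28280000. Genes listed at 0 numbered 4824 in A2 and 4266 in A4, which had about 25360000 reads, against 2225 to 2527 in the other ATM-WT libraries. In ATM-KO they numbered 3602 in A12 and 2403 to 2641 in the other libraries. The part of depth in these counts was not tested. The targeted gene Atm stood at 485 ± 183 normalized counts (SD, n = 5) in ATM-WT and 455 ± 139 in ATM-KO tumours (log2 difference -0.07, SE 0.26, limma adjusted p = 0.85), and the groups overlapped. Atm mRNA therefore does not check the genotype, and ATM-KO stands here for the label. General epithelial markers did not overlap, with Epcam at 2587 to 9863 in ATM-WT and 34.0 to 63.7 in ATM-KO tumours, and Krt5 at 8182 to 64561 and 0 to 59.9. Krt18 was at 3167 to 6722 and 1259 to 2197, Krt14 at 17475 to 116142 and 336 to 1076, and Cdh1 at 2957 to 13261 and 201 to 375. In ATM-KO tumours Krt8 reached at most 34.2 and Krt19 at most 15.7, against at least 6934 and 3884 in ATM-WT. The defining epithelial markers of a urothelial tumour were thus lower in tumours labelled ATM-KO, to unlike degrees. Of the housekeeping genes, 8 of 8 were above 0 in every library. Fewer epithelial cells and less RNA per epithelial cell cannot be told apart in bulk tissue.

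Across the 16517 genes with a mean of at least 10, 0.733% were at 0 in every ATM-KO library and 0.0545%, or 9 genes, were at 0 in every ATM-WT library. Among genes with an ATM-WT mean of 20 to 50 normalized counts, 54 of 1717 were at 0 in every ATM-KO library, and the mirror count for ATM-KO means of 20 to 50 was 7 of 1601. At means of 100 to 200 the counts were 18 of 1449 and 0 of 1346, and at 200 to 500 they were 15 of 2735 and 0 of 2541.

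**Figure D1:**
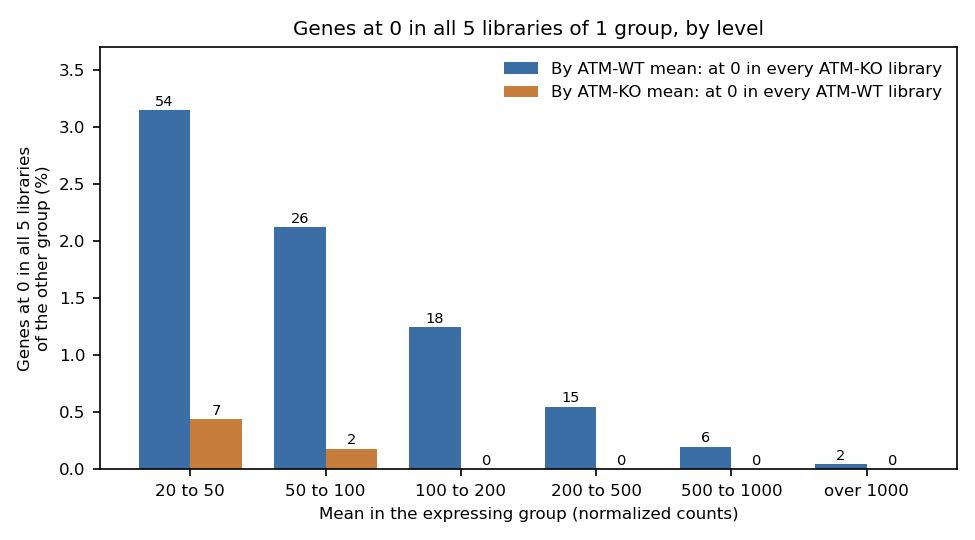
Share of genes, in percent on the vertical axis, that were at 0 in all 5 libraries of 1 group, by their mean in the other group in normalized counts on the horizontal axis, with the number of genes above each bar and the families left out elsewhere included. The share at 0 in every ATM-KO library falls from 3.15% at ATM-WT means of 20 to 50 to 0.0402% above 1000, and the mirror share is 0 from 100 upward.

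A listed 0 is limited by depth, since about 1 read per library was worth 0.762 to 1.02 normalized counts in the ATM-KO tumours. A further 112 genes with a mean of at least 10 were at 0 in exactly 4 ATM-KO libraries. Unlike the 113, this count includes the left-out families. Their single remaining value had a median of 1.87 normalized counts, at most 1 in 33 genes and at most 5 in 92. Dapl1, with an ATM-WT mean of 2287, missed the rule through 5.35 in A14, Kcnk1 (mean 1009) through 10.8 in A11 and the mucin gene Muc5b (mean 841) through 0.886 in A15. At the other edge of the rule, A830036E02Rik, Phgr1 and Gm21388 were just inside with overall means of 10.02, 10.12 and 10.13, and Gm6569, Defb3 and Catsper4 just outside with 9.84, 9.76 and 9.60. Genes with a few reads in ATM-KO tumours thus bordered the 113 at the zero rule, and genes with slightly lower means at the level cut.

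Their ATM-WT means ran from 20.05 to 1063 normalized counts, with a median of 58.1. A mean of 500 was reached by 7 members, 200 by 20 and 100 by 37, and 52 lay under 50. In ATM-WT, 92 members were above 0 in all 5 tumours, 15 in 4, 4 in 3 and 2 in 2. By GENCODE M21, 93 of the 109 members it holds are protein-coding, 10 are long intergenic non-coding RNAs and 5 are antisense RNAs. Sorted by hand into function classes once the members were known, mucus and mucosal defence took 18 genes and non-coding RNAs and pseudogenes another 18.

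**Figure D2:**
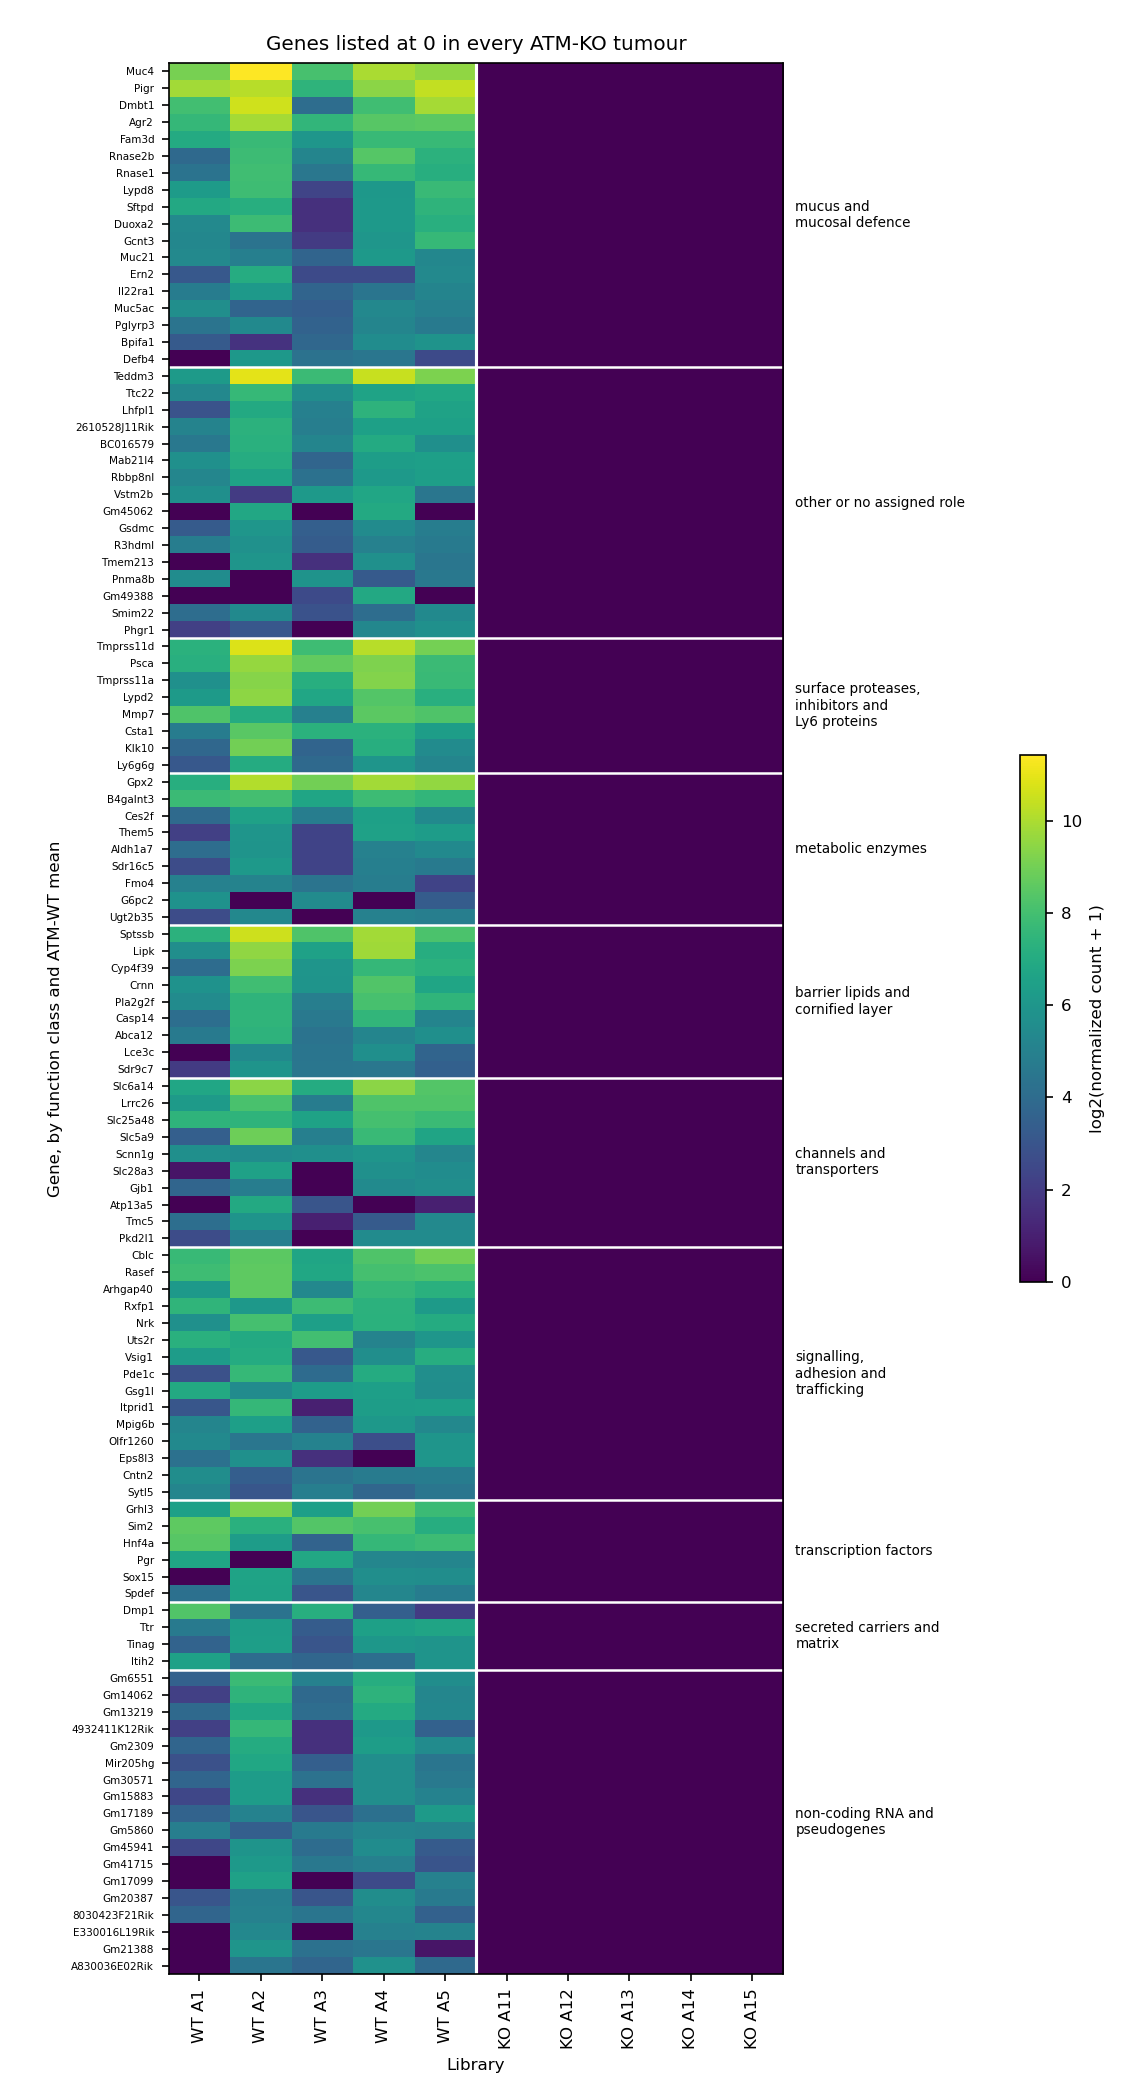
Values of the 113 genes (rows, by function class and ATM-WT mean) in the 10 libraries (columns), as log2 of the normalized count plus 1. The ATM-KO side is at 0 by the choice of genes, and within ATM-WT the brightest column is A2 in 64 rows and A4 in 22, and the darkest is A3 in 51 and A1 in 44.

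Within ATM-WT the members spread widely from tumour to tumour. Their coefficient of variation over the 5 libraries had a median of 0.829. It was 0.306 for the 10495 genes whose ATM-WT means lay in the same range, a description without a test. Those genes were not matched to the members on level within the range, and 52 members had an ATM-WT mean under 50. The part of level in this gap was not tested. Tumour A2 held the highest value of 64 members and A4 of 22, while A3 held the lowest value of 51 and A1 of 44. Over all 16517 genes, A2 was highest in 29.1% (members 56.6%) and A4 in 16.9% (members 19.5%), and A3 was lowest in 20.1% (members 45.1%) and A1 in 22.6% (members 38.9%). In 55 members A2 and A4 both exceeded the other 3 tumours, and in 29 members 1 tumour held more than 50% of the ATM-WT sum, which was A2 in 21 of them.

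Summed over the 113 genes, A2 held 28842 normalized counts, A4 19494, A5 14236, A1 7776 and A3 6190. Markers of fibroblasts and stroma ran the other way, with summed levels of 139882 in A3, 97987 in A1, 55769 in A4, 49992 in A5 and 35883 in A2. Immune cell markers summed to 13081 in A3, 13054 in A1, 10723 in A5, 7471 in A4 and 5064 in A2. Tumours rich in the members were thus those with the lower stromal and immune sums. Skeletal muscle markers summed to 3979 in A3 against 344 to 425 in the other ATM-WT tumours. The part of tissue makeup in the spread was not tested. Without A2 and A4, 68 genes would meet the same rule. The mean is then taken over the libraries kept, so the same cut asks for a higher ATM-WT mean, and part of this fall follows from the cut.

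Genes of mucus and mucosal defence numbered 18. Their values, and those of the classes after them, are in normalized counts, not scaled for gene length, and in the order A1, A2, A3, A4, A5. Muc4, a membrane-bound mucin, had the highest ATM-WT mean of the members, with values of 534.8, 2748, 277.3, 1015 and 736.8. Pigr, the receptor that carries IgA across epithelium, measured 903.3, 1162, 171.1, 685.1 and 1334, and Dmbt1, a secreted scavenger receptor that binds bacteria, 246.5, 1544, 15.8, 241.6 and 945.9. Muc4 peaked in A2, whereas Pigr peaked in A5, and Dmbt1 had the highest ratio of its top to its bottom tumour among the 3. Agr2, a protein disulfide isomerase needed for mucin folding, stood at 194.2, 956.1, 179.9, 353.3 and 372.0, so A2 was far above the rest. The endoplasmic reticulum stress sensor of mucus-making cells, Ern2, was at 7.92, 132.9, 4.98, 4.98 and 40.1, with A2 again highest. The gel-forming mucin Muc5ac was at 49.8, 11.99, 9.71, 39.2 and 30.8, and A1 was highest. Muc21, another membrane mucin, had its peak of 72.2 in A4 and its low of 11.9 in A3.

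Several other members act against microbes. Sftpd, the collectin surfactant protein D, measured 117.7, 142.8, 1.99, 68.7 and 171.9 normalized counts. Lypd8, a Ly6-type protein that binds flagellated bacteria in the gut, was at 77.2, 231.8, 4.03, 66.9 and 214.6, and Duoxa2, the maturation factor of dual oxidase 2, at 40.4, 228.8, 1.99, 68.7 and 145.5. All 3 had their low in A3, where they were near 2 to 4 normalized counts. The neighbouring ribonuclease genes Rnase1 (19.3, 239.3, 21.9, 200.1 and 140.4) and Rnase2b (14.04, 225.1, 35.9, 339.2 and 161.7) shared a pattern with A1 and A3 low. Defb4, a beta-defensin, reached 67.6 in A2 and was listed at 0 in A1. Fam3d, a cytokine-like secreted protein, was among the steadiest, between 62.8 in A3 and 214.3 in A2. Gcnt3, an O-glycan branching enzyme of mucins, was highest in A5 at 198.8, and Il22ra1, a cytokine receptor subunit of epithelial cells, ran from 11.9 to 71.3. Pglyrp3, which recognises bacterial peptidoglycan, lay between 10.96 and 41.9, and Bpifa1, a secreted airway protein, between 2.15 and 58.2. Of these 18 genes, 14 were lowest in A3 and 11 highest in A2.

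**Figure D3:**
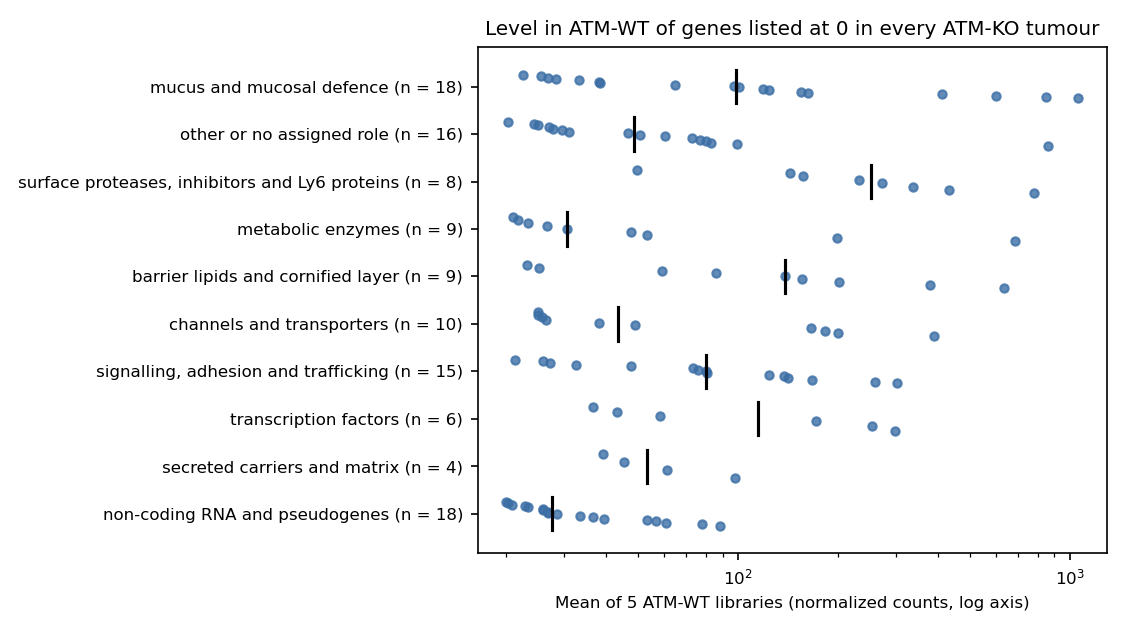
Mean over the 5 ATM-WT libraries, in normalized counts on a log axis, of each of the 113 genes (points) by function class, with a black bar at the class median. Surface proteases, inhibitors and Ly6 proteins have the highest class median at 252 and non-coding RNAs and pseudogenes the lowest at 27.6.

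Surface proteases, their inhibitors and Ly6 proteins had the highest class median, also per kilobase of annotated exon, at 217 normalized counts per kb, and gave 8 genes. Tmprss11d, a transmembrane serine protease of airway and squamous surfaces, measured 155.4, 1821, 236.3, 1167 and 527.8. Its neighbour in the genome and relative Tmprss11a was at 53.1, 647.7, 144.4, 627.2 and 215.7. Both had A2 and A4 on top and A1 at the bottom. Psca, a lipid-anchored Ly6 protein of urothelium and prostate, stood at 145.7, 785.3, 414.0, 594.8 and 221.7, and Lypd2, from the same gene cluster, at 74.8, 709.7, 107.5, 326.8 and 144.7. Klk10, a secreted kallikrein, had 507.1 in A2 against 11.9 to 141.6 elsewhere. Mmp7, matrilysin, broke the pattern with 306.4, 130.7, 30.9, 378.0 and 311.3, so A2 was not its peak. Csta1, a cystatin-type inhibitor of cysteine proteases, ran from 26.5 in A1 to 364.9 in A2, and Ly6g6g from 7.90 to 130.4 in the same tumours. Per kilobase of annotated exon, which allows genes to be compared, Psca at 503 and Lypd2 at 402 normalized counts per kb ranked behind Teddm3 at 640 and ahead of Sptssb at 347 and Agr2 at 318.

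Barrier lipid and cornified layer genes gave 9 members. Sptssb, a small subunit of the enzyme that begins sphingolipid synthesis, measured 160.5, 1500, 307.0, 909.2 and 287.1 normalized counts. Lipk, a lipase of differentiating keratinocytes, was at 48.6, 732.5, 91.1, 886.4 and 138.5, and Cyp4f39, which hydroxylates very long fatty acids for the skin's acylceramides, at 15.4, 580.1, 60.9, 194.7 and 157.2. A2 and A4 were the top tumours in each. Crnn, cornulin of the cornified envelope, stood at 56.2, 243.6, 59.1, 319.0 and 103.5, and Casp14, the caspase of cornifying cells, at 16.7, 174.5, 23.9, 179.9 and 34.4. The phospholipase Pla2g2f peaked at 275.2 in A4, the lipid transporter Abca12 at 164.3 in A2, Lce3c, a late cornified envelope gene, at 50.9 in A4 and Sdr9c7, an acylceramide-oxidising enzyme, at 58.8 in A2. In this class A1 was lowest for 7 of 9 genes. Almost 50% of the 31-base words of Lce3c (49.7%) also occur in other genes, so its reads may be split with them.

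Of the 6 transcription factors, Grhl3, the grainyhead-like factor of barrier formation, had the highest mean, with values of 89.6, 574.9, 87.5, 512.4 and 223.4. Its profile, high in A2 and A4, was that of the barrier genes. Sim2, a basic helix-loop-helix factor, differed, with 384.7, 149.7, 328.8, 269.5 and 136.8, highest in A1 and A3. Hnf4a, a nuclear receptor of gut, liver and kidney epithelia, measured 349.3, 79.6, 11.4, 193.1 and 223.8, and Pgr, the progesterone receptor, 103.1, 0, 114.2, 37.0 and 36.1. Neither of these followed Grhl3, and Pgr was listed at 0 in A2, the tumour in which most members were highest and 1 read was worth most. Spdef, the ETS factor of goblet cells, reached 94.5 in A2 and lay between 6.98 and 36.4 in the others, and Sox15 reached 98.7 in A2 and was listed at 0 in A1.

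Channels and transporters numbered 10. Slc6a14, a broad amino acid carrier, had the highest mean, with values of 106.3, 690.1, 128.3, 691.7 and 332.6 normalized counts, again with A2 and A4 on top. Scnn1g, a subunit of the epithelial sodium channel, was at 50.1, 46.7, 50.7, 60.5 and 36.4, and with a coefficient of variation of 0.177 it was the steadiest of all 113 genes. Lrrc26, which tunes a potassium channel of secretory cells, ran from 26.9 in A3 to 312.4 in A5. Slc25a48, a mitochondrial carrier, lay between 94.5 and 261.2, and Slc5a9, a sugar cotransporter, between 9.95 in A1 and 474.7 in A2. Atp13a5, an ATPase of the P type, had 120.3 of its counts in A2 and at most 6.96 in any other tumour. The nucleoside carrier Slc28a3, the gap junction gene Gjb1 and the channel gene Pkd2l1 were listed at 0 in A3, and Tmc5 was at 1.04 there.

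**Figure D4:**
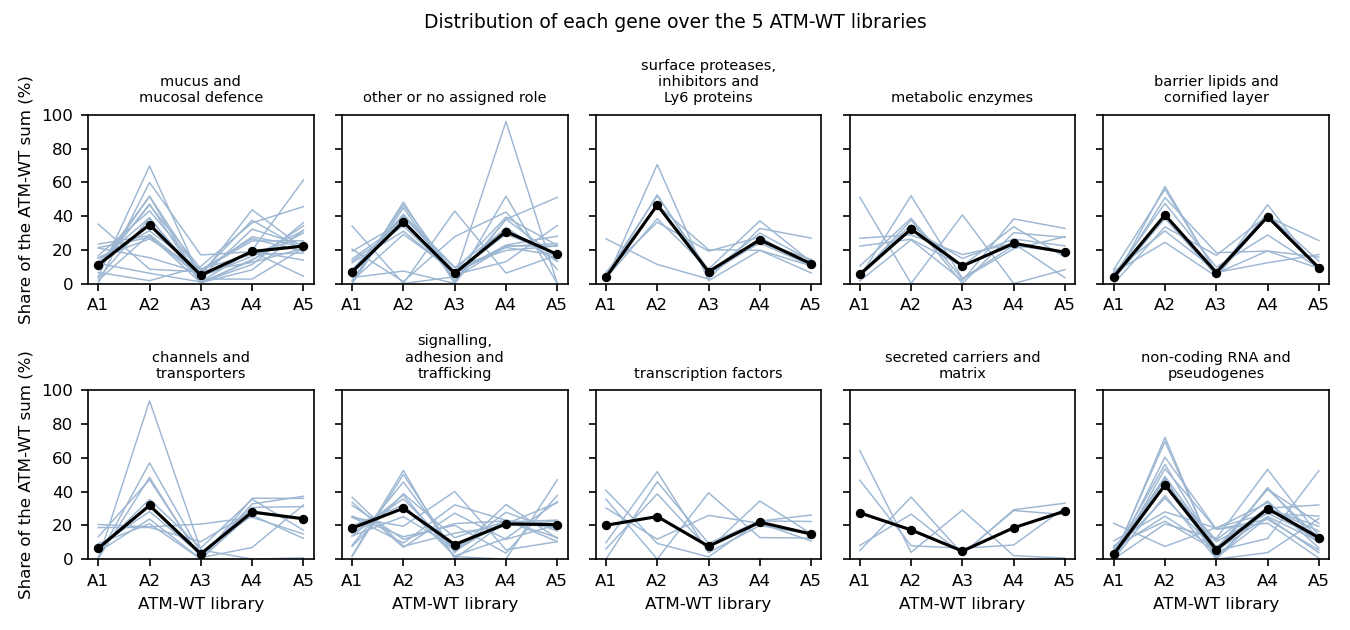
Share of each gene's ATM-WT sum, in percent, found in each of the 5 ATM-WT libraries, by function class, with thin lines for genes and a black line for the class median. A2 carries the highest median share in 9 of the 10 classes, at 46.5% in the class of surface proteases, and A3 stays at or below 10.3% in all of them.

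Among 9 metabolic enzymes, Gpx2, the glutathione peroxidase of the gut lining, had the highest mean, with values of 142.3, 1108, 510.3, 905.9 and 765.2 normalized counts, and only A1 was below 500. B4galnt3, which builds a terminal sugar pair on glycans, was the steadiest member with an ATM-WT mean of at least 100, at 220.0, 260.5, 102.7, 226.4 and 182.8. The carboxylesterase Ces2f, the thioesterase Them5, the aldehyde dehydrogenase Aldh1a7, the retinol dehydrogenase Sdr16c5, the flavin monooxygenase Fmo4, the glucose-6-phosphatase G6pc2 and the glucuronosyltransferase Ugt2b35 had means of 20.9 to 53.4. G6pc2 was listed at 0 in A2 and A4 and reached 55.4 in A1, against the prevailing pattern.

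Signalling, adhesion and trafficking genes were the least variable class, with a median coefficient of variation of 0.600 over 15 genes. Cblc, a ubiquitin ligase acting on receptor kinases, measured 206.5, 378.1, 102.7, 313.8 and 502.9 normalized counts, and Rasef, a Rab GTPase, 236.8, 389.0, 110.9, 264.2 and 290.3. Rxfp1, the relaxin receptor, was at 176.6, 67.7, 228.4, 163.2 and 74.4, and Uts2r, the urotensin receptor, at 152.8, 120.5, 247.9, 34.0 and 63.9. The receptors had their peak in A3, where the first pair had its low. Arhgap40 and Nrk peaked in A2 at 383.2 and 267.5, and Vsig1, a junctional adhesion protein, in A5 at 137.0. Pde1c, a calmodulin-dependent phosphodiesterase, and its genomic neighbour Itprid1 peaked in A2 at 200.4 and 192.7. Gsg1l, Olfr1260, Cntn2 and Sytl5 were not highest in A2, and Mpig6b and Eps8l3 had means of 47.8 and 27.2.

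Genes of secreted carriers and matrix numbered 4. Dmp1, an acidic phosphoprotein of bone and dentin matrix, was at 314.5, 19.7, 142.3, 9.95 and 2.95 normalized counts, nearly the reverse of the barrier genes. Ttr, the thyroxine and retinol carrier transthyretin, was at 24.6, 81.3, 8.97, 89.4 and 101.2. Tinag, a basement membrane protein, peaked in A2 at 83.6, and Itih2, a hyaluronan-binding plasma protein, in A1 at 91.8.

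Teddm3, a gene with no assigned role here, had the second-highest mean, at 72.9, 2004, 218.1, 1428 and 580.8 normalized counts. Of its 31-base words, 55.2% also occur in another gene, and its neighbour Gm6551, also a member, shares most of them, so the 2 values are uncertain. The other 15 genes in that class, among them Ttc22, Lhfpl1, Mab21l4, Rbbp8nl, Gsdmc and R3hdml, had means between 20.2 and 99.4. Gm45062 and Gm49388, with 99.5% and 99.0% of their words in other genes, are likewise uncertain, and each was above 0 in 2 tumours only. Among the non-coding RNAs, Mir205hg, the host transcript of an epithelial microRNA, measured 6.15, 110.6, 9.95, 49.7 and 20.7. Gm14062, Gm13219 and 4932411K12Rik had means of 77.9, 60.6 and 56.5, and 12 of the 18 genes of the class were highest in A2. Gm2309 and E330016L19Rik share 93.5% and 92.6% of their words with each other.

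Several members overlap a gene on the opposite strand, and whether the counting used strand is not given in the sources used here. Gm15883 overlaps Cyp2f2, which went from a mean of 3102 in ATM-WT to 6.85 in ATM-KO tumours, Gm17099 overlaps Tmprss4 (1232 and 3.02) and A830036E02Rik overlaps Krt12 (285 and 0.152). If strand was not used, reads from any sequence that these antisense RNAs share with their partners cannot be told apart. Gpx2 overlaps Fntb, whose means were 366 and 357, and Sox15 overlaps Mpdu1, with 1139 and 855. These partners had reads in ATM-KO tumours, where both members were listed at 0. Overlaps were taken over whole gene spans and not exons, so how much sequence any pair shares was not tested.

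In the order of protein-coding genes in RefSeq, 93 members could be placed, and 14 of them formed 7 runs with no more than 2 other genes between them. Those described above are Rnase1 with Rnase2b, Psca with Lypd2, Gm6551 with Teddm3, Tmprss11d with Tmprss11a and Itprid1 with Pde1c. The others join R3hdml to Hnf4a, and Grhl3 to Il22ra1. Genes lying between members did not all follow them. Between Psca and Lypd2, the Ly6 gene Slurp1 fell from a mean of 311 to 2.39 normalized counts (log2 difference -6.23, SE 0.58, limma adjusted p = 3.9e-06). Them6, in the same interval, rose from 468 to 2183 (log2 difference 2.25, SE 0.16, adjusted p = 7.0e-07), with no overlap between the groups. Ifnlr1, between Grhl3 and Il22ra1, had means of 190 and 15.2.

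Relatives of the members were compared between groups by limma on the log2 scale after adding 1, over all 16517 genes tested, of which 24.3% passed at an adjusted p of 0.05 as lower in ATM-KO and 22.1% as higher, with a median log2 difference of 0.00. In 11 functional gene lists, chosen with earlier results of these data known and counted without the members, 285 of 397 tested genes passed as lower and 26 as higher, with a median log2 difference of -2.77. Of the 113 genes, 36 are in any of the lists used, markers included. Relatives by symbol alone, which share only a name stem with a member, were less one-sided, with 232 lower and 106 higher of 673 tested and a median of -0.21.

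**Figure D5:**
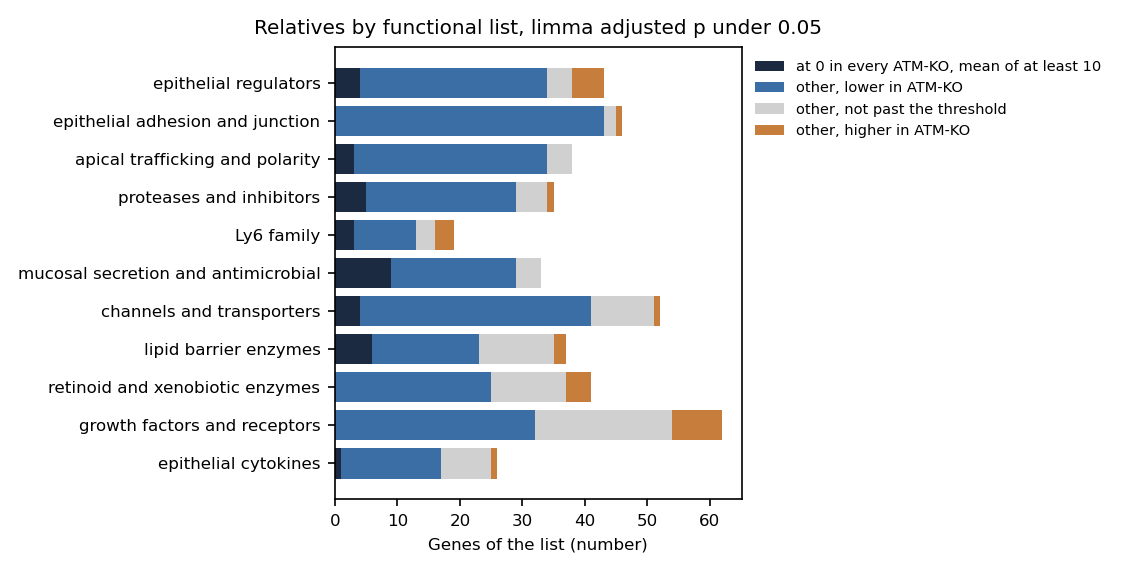
Number of genes in each of the 11 functional lists (bars), split into members of the 113, other genes that passed as lower or higher in ATM-KO by limma at an adjusted p of 0.05, and other genes that did not pass. Lower genes outnumber higher ones in every list, with 43 against 1 in epithelial adhesion and junction, 31 against none in apical trafficking and 10 against 3 in the Ly6 family.

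Among mucosal secretion and antimicrobial genes, which include 9 members, 20 of 24 others passed as lower and none as higher, with a median log2 difference of -5.22. Muc5b, a gel-forming mucin, measured 592.3, 1923, 432.4, 768.5 and 487.4 normalized counts in ATM-WT tumours and was above 0 in 1 ATM-KO tumour, at 0.886 (log2 difference -9.30, SE 0.45, adjusted p = 5.3e-08). Ltf, the iron-binding protein lactoferrin, fell from 3415 ± 2564 (SD, n = 5) to 10.1 ± 13.8 (log2 difference -8.59, SE 0.67, adjusted p = 1.2e-06). The membrane mucin Muc1 kept 61.4 to 201 normalized counts in ATM-KO tumours, against 83.3 to 795 in ATM-WT, and the groups overlapped (log2 difference -1.57, SE 0.55, adjusted p = 0.033), and the call was lost in 8 of the alternatives run. The mucin genes described thus ranged from genes listed at 0 to Muc1, with overlapping values. Of 6 other tested genes with the Muc stem, 4 passed as lower and none as higher, so some did not pass.

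In the list of proteases and inhibitors, with 5 members, 24 of 30 others passed as lower and 1 as higher, and the median was -4.32. Tmprss11b and Tmprss11g, from the same family as Tmprss11d and Tmprss11a, fell from means of 2537 to 3.42 and from 735 to 0.598. Spink5, an inhibitor of kallikreins in the skin, went from 671 to 9995 normalized counts across ATM-WT tumours to 0 to 3.57 in ATM-KO tumours (log2 difference -10.55, SE 0.71, adjusted p = 4.3e-07). The Ly6 list gave 10 lower and 3 higher of 16 others, with Ly6d falling from 6263 to 6.41 and Lypd3 from 1595 to 34.1. The Ly6 family thus held genes that moved in either direction.

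Epithelial regulators, with members Grhl3, Hnf4a, Spdef and Sox15, had 30 of 39 others lower, 5 higher and a median of -2.85. Grhl2, another grainyhead-like factor, measured 472.1, 2209, 300.4, 1645 and 1335 normalized counts in ATM-WT and 7.67 to 19.7 in ATM-KO tumours (log2 difference -5.91, SE 0.51, adjusted p = 2.4e-06). Grhl1 fell less, from 452 ± 232 to 40.96 ± 15.8 (log2 difference -3.32, SE 0.41, adjusted p = 3.4e-05). Esrp1, an epithelial splicing regulator, had a log2 difference of -7.84.

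Among channels and transporters, with 4 members, 37 of 48 others passed as lower and 1 as higher, with a median of -3.58. The other sodium channel subunits accompanied Scnn1g. Scnn1a was at 120.04 to 137.8 normalized counts in ATM-WT tumours and at 0 in 3 of 5 ATM-KO tumours (log2 difference -6.34, SE 0.54, adjusted p = 2.2e-06), and Scnn1b at 10.8 to 83.6 and at 0 in 4 of 5 (log2 difference -4.92, SE 0.67, adjusted p = 7.3e-05). The gap junction gene Gjb2 fell from 2064 to 1.83. Slc25a relatives, mitochondrial carriers, were higher in 14 and lower in 4 of 40 tested.

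Lipid barrier enzymes, with 6 members, were lower in 17 and higher in 2 of 31 others, with a median of -1.97. Cers3, the ceramide synthase of very long acyl chains, fell from 535 to 23.2 normalized counts, and Alox12 from 645 to 12.5. The list of retinoid and xenobiotic enzymes holds none of the 113 genes, although Aldh1a7, Sdr16c5, Fmo4 and Ugt2b35 are enzymes of that kind, and 25 of its 41 genes passed as lower and 4 as higher (median -1.21). Aldh1a1, a retinaldehyde dehydrogenase that shares 13.8% of the 31-base words of Aldh1a7, fell from 424 to 6.36. Gpx2 had relatives in both directions, with Gpx1 rising from 7036 ± 961 to 10459 ± 991 (log2 difference 0.58, SE 0.11, adjusted p = 9.5e-04) and Gpx3 falling from 6584 ± 2867 to 1210 ± 471 (log2 difference -2.43, SE 0.32, adjusted p = 6.2e-05).

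The lists of adhesion and junction genes (43 of 46 lower, 1 higher, median -3.45) and of growth factors and receptors (32 of 62 lower, 8 higher, median -1.40) hold none of the 113 either, although members outside them, such as Vsig1, Rxfp1 and Uts2r, have such roles. Apical trafficking genes held 3 members and had 31 of 35 others lower and none higher, with a median of -3.59. Mal2, a carrier of apical transport, went from a mean of 4611 normalized counts to 0.357 (log2 difference -11.60, SE 0.44, adjusted p = 1.2e-08). Epithelial cytokine genes, with member Il22ra1, were lower in 16 and higher in 1 of 25 others, and the median of -0.96 was the smallest fall of the 11 lists.

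Markers of other cell types that such tumours can hold were counted beside the members. Skin and hair follicle markers, with Lce3c among them, were lower in 8 and higher in 1 of 11 others, and summed, without that member, to 1558 to 5557 normalized counts in ATM-WT and 591 to 881 in ATM-KO tumours. Flg, filaggrin, fell from 383 to 0.698. Urothelial and luminal markers, with Grhl3 and Psca, were lower in 15 and higher in 1 of 19 others, and summed without them to 9438 to 19035 and 3295 to 3782. Mast cell markers (12 of 13 lower, 1 higher) summed to 1757 to 4752 and 536 to 888, and fibroblast and stroma markers (29 of 41 lower, 4 higher) to 35883 to 139882 and 20867 to 28226. Nerve and Schwann cell markers (4 lower, 3 higher of 11, median log2 difference -0.60) summed higher in ATM-KO tumours, at 6970 to 8102 against 2841 to 5114 in ATM-WT. Most of the ATM-KO sum was 1 gene, Tubb3, with means of 1193 in ATM-WT and 5098 in ATM-KO tumours. Mbp fell from 926 to 393, so the higher sum does not describe the list as a whole. Immune cell markers gave 2 lower and 5 higher of 20, smooth muscle and pericyte markers 5 lower and none higher of 14, and adipocyte markers 2 lower and 1 higher of 8. Endothelial markers gave 1 lower and 1 higher of 16, and skeletal muscle markers 1 lower and none higher of 18, or 7 higher without A3. None of the fibroblast or mast cell markers was at 0 in every ATM-KO library, and 3 of the skin markers were, Lce3c among them. The part of these cell types in the values of the 113 genes was not tested.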

How the data were processed

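RNA from 10 BBN963 tumours, 5 ATM-WT and 5 ATM-KO, was extracted and sequenced by a company, per the labels. The submitters' processing notes name STAR, Salmon and DESeq2, with no version, and genome build and strand setting are not given by any source used here. The deposited table holds the authors' normalized counts, a signal scaled between libraries and not raw counts. Among low values above 0, 58.8% to 68.9% per library were near whole multiples of 1 read. Column names give the group and not which labelled sample.

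The 16517 genes whose mean reached 10 were tested with limma 3.58.1 (lmFit and eBayes with trend, R 4.3.3) on log2(value + 1), with Benjamini-Hochberg adjustment over all of them and a threshold of 0.05, and the script was tested on simulated data. Fold changes on this scale understate the change of low genes. The 113 members were fitted with the rest and count in the shares over all genes, but no p-value of theirs is reported.

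The members and lists were chosen with earlier results of these data known, and the function classes were assigned by hand once the members were known. Named members are those with the highest ATM-WT means overall and per list or class, the steadiest and least steady, those at the edges of the rule and genome neighbours. Other named genes have the smallest limma p per list, or the highest ATM-WT mean per symbol family. Further names were chosen after their values were seen. Genes were matched by symbol to GENCODE M21 and to RefSeq (GRCm38.p6). Alternatives changed the level cut, the zero rule, the scaling, the pseudocount, the filter and the libraries used. Some genes are not reported here.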

Additional observations from a re-analysis of the deposited data

Results flagged for a closer look

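In each of the 113 members the 5 ATM-WT values were searched for a tumour far from the others, by the gap to its nearest neighbour against the whole range, and 6 were found, 5 of them in A2 and 1 in A4. Agr2, the mucin-folding enzyme, stood at 956.1 normalized counts in A2 against 179.9 to 372.0 in the other 4 tumours. Klk10, a kallikrein, was at 507.1 in A2, and the lipid transporter Abca12 at 164.3. Ern2, the stress sensor of mucus-making cells, was at 132.9 in A2, and Atp13a5, a P-type ATPase, at 120.3. Gm49388, nearly all of whose words occur in other genes, was at 119.5 in A4 and at most 4.97 elsewhere. Chance alone puts about 1 in 20 groups past this limit. A2 also had the fewest reads, about 8820000, and the lowest sum of fibroblast and stroma markers, 35883, and the part of either in these values was not tested.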

How the results depend on the processing

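The number of members depended on the level asked for and on the zero rule. It was 113 at a mean of at least 10, 179 at 5, 68 at 20 and 37 at 50, and 218 with 0 in at least 4 ATM-KO libraries. It was 68 without A2 and A4 together, and 90 to 150 when each library was left out in turn. In these runs the mean was taken over the libraries kept, so part of the change follows from the cut itself. Leaving out ATM-WT libraries asks for a higher ATM-WT mean. Leaving out an ATM-KO library asks for a lower one and for fewer zeros. Allowing at most 1 normalized count in every ATM-KO library gave 149, upper-quartile scaling 108, asking for a value above 0 in all 5 ATM-WT libraries 92, and leaving out members that share most of their 31-base words with another gene, an alternative chosen after seeing the data, 107. Leaving out placeholder symbol stems such as Tmem and Fam, also chosen after seeing the data, changed the relatives by symbol from 106 higher and 232 lower to 47 higher and 106 lower. The other counts of genes higher or lower, over all genes, the pooled lists and symbol families, stayed within 1.5 times under each alternative run. Counts of single lists moved further in 61 cases, 56 of them small counts of higher genes, and lower genes in the list of lipid barrier enzymes went from 17 to 11 at a mean of at least 50. Among the other named genes 53 calls were lost and 20 gained, in 19 genes, of which the text describes Muc1, and no direction turned. With 1 library left out, the genes lower over the whole table numbered 3656 to 4064 and the genes higher 3219 to 3791. Quantile normalization gave 3319 lower and 4514 higher genes over the whole table, against 4017 and 3649, and 263 lower and 34 higher in the functional lists, against 285 and 26. No paired analysis was possible because the columns carry no replicate numbers of the labels. Depth limits what a 0 means, since a gene could have reads below about 1 per library and still be listed at 0.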
